A study of Mus musculus with 2 samples.

Results

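The genes described here are 9 lymphocyte genes of 23420 gene rows in the count table: Cd3d, Cd3e, Cd3g, Cd4, Cd8a, Cd79a, Cd79b, Nkg7 and Igj. They were selected by name, as genes of the T cell receptor complex, its coreceptors, the B cell receptor, natural killer (NK) cells and plasma cells. The rule used no measured value, but the names were picked with earlier results of these data known. Polyadenylated RNA came from RPE-choroid, which is the retinal pigment epithelium (RPE) together with the vascular coat that supplies it. One group of 3 mice is labelled AhR -/- (strain B6.129-AhRtm1Bra/J) and lacks the aryl hydrocarbon receptor by its label. The other group of 3 mice is labelled AhR +/+ (C57BL6/J). All 6 mice were untreated and 11 to 13 months old, and tissue of 2 eyes was pooled for each library after the anterior segment and the retina had been removed. Each group comes from 1 strain, and the sources used here do not say whether littermates were used.

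T cells recognise antigen through a receptor whose variable chains cannot signal alone. The invariant chains encoded by Cd3d, Cd3e, Cd3g and Cd247 carry the signal, and the coreceptors CD4 and CD8 bind the MHC molecule that presents the antigen. B cells use the pair CD79A and CD79B in the same way for membrane-bound antibody, plasma cells secrete antibody, and NK and cytotoxic T cells kill through granules. The retina and the subretinal space are guarded from these cells by barriers and local suppression, whereas the choroid is a vascular tissue through which blood leukocytes pass. AhR is a ligand-activated transcription factor that is known for roles in several T cell subsets and innate lymphoid cells. The comparison asks whether the transcripts of these lymphocytes differed between AhR knockout and wild-type RPE-choroid.

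The libraries held 18058725 to 28692624 gene counts each. Ahr itself was counted at 40.6 to 45.4 CPM (the count scaled to the TMM-adjusted library size) in the knockout-labelled and 19.7 to 26.0 CPM in the wild-type libraries. Its log2 fold change, knockout-labelled over wild type, was 0.95 (SE 0.16), and the edgeR adjusted p was 0.0991. Ahr was thus not lower in the libraries labelled knockout. Since a missing exon would not show in a total over all exons, this is no check of the genotype, and these libraries are called knockout-labelled throughout. Markers of RPE were high in all 6 libraries (summed level of 10 genes 21100 to 38600 CPM). Knockout-labelled animal 1 stood apart in erythroid transcripts, with a summed level of 1120 CPM for 7 listed genes against 4.32 to 78.4 CPM in the other libraries. Knockout-labelled animals 2 and 3 stood apart in epithelial genes of the cornea and conjunctiva, at 15300 and 11900 CPM over 9 genes against 2590 to 6270 CPM elsewhere. These epithelia lie outside the dissected layer. Alignments to several places made up 22.9% to 25.1% of the counting tool's total in the knockout-labelled and 18.7% to 19.4% in the wild-type libraries, without overlap, and the part of this difference in the members' values was not tested. Xist, transcribed in female cells, stood at 820 and 844 CPM in animal 1 of each group and at 1.1 to 4.05 CPM in the other 4 libraries, so the animals differed in sex within each group.

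Promoter sequences are given for the members whose neighbourhood or motif content a reader may want to see beside the values. Cd3g and Cd3d lie back to back on chromosome 9, on opposite strands, with 1354 bp between them, and the Cd3e gene model lies a further 11400 bp on. In GRCm38 (GENCODE M21) Cd3g spans chr9:44969572-44980431 (minus strand), Cd3d chr9:44981786-44987339 (plus) and Cd3e chr9:44998740-45009627 (minus). The others are scattered: Cd4 at chr6:124864692-124888221 (minus), Cd8a at chr6:71373427-71379173 (plus), Cd79a at chr7:24897381-24902197 (plus), Nkg7 at chr7:43437073-43438249 (plus), Cd79b at chr11:106311341-106314762 (minus) and Igj at chr5:88519809-88527891 (minus). The RefSeq promoter table (GRCm38.p6) matched 7 of the 9 members by symbol, with Igj under its current symbol Jchain, and not Cd4 or Cd79b. Each window runs over the 250 bases before the RefSeq start and is printed only as far as it lies outside the GENCODE gene model, 5′ to 3′ on the gene's strand. The sequences shown are those of the back-to-back pair, of Igj, whose libraries did not overlap between the groups, and of Cd79a, the 1 member with a match to the core of the AhR response element. Capitals mark that match.
Cd3g, chr9:44980432-44980681, minus strand: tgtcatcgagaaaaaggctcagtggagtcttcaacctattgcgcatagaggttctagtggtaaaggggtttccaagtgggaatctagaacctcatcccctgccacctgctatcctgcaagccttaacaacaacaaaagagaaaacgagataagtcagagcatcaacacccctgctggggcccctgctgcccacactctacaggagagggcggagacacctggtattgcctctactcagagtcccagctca
Cd3d, chr9:44981536-44981785, plus strand: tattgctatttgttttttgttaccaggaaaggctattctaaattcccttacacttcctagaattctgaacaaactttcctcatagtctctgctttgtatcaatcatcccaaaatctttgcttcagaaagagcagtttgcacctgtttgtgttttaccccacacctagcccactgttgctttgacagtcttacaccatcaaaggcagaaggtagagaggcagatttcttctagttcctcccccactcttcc
Igj, chr5:88527898-88528147, minus strand: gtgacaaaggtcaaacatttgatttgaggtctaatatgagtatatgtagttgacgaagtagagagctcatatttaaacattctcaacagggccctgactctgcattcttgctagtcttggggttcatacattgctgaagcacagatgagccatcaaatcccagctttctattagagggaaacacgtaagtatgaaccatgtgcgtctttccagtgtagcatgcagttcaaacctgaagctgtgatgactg
Cd79a, chr7:24897247-24897380, plus strand: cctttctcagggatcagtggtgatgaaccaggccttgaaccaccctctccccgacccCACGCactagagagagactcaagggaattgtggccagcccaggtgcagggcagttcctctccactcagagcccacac
The core was searched as GCGTG on both strands (CACGC on the strand shown). It was found in the window of Cd79a, beginning 193 bases before the start, and not in those of Cd3d, Cd3e, Cd3g, Cd8a, Nkg7 or Igj. Of all 32851 promoter windows of the same length, 28.2% hold it. The octamer ATGCAAAT, the motif of immunoglobulin promoters (both strands, in 1.6% of all windows), and the TATA box letters TATAAA (gene strand, 7.6%) matched none of the 7 windows. A match or its absence is a description of these letters and says nothing about binding.

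All 9 members were detected, at low levels. The smallest sum over the 6 libraries was 41 reads (Cd79a) and the largest 1493 (Cd4). Scaled by exon length, the order of the mean level over the 6 libraries was Cd4 (2.58 ± 0.986 CPM per kb), Igj (2.12 ± 1.04), Nkg7 (1.85 ± 1.32), Cd79b (1.13 ± 1.00), Cd8a (0.472 ± 0.245), Cd3d (0.323 ± 0.433), Cd3e (0.318 ± 0.257), Cd79a (0.188 ± 0.168) and Cd3g (0.178 ± 0.191; SD over 6 libraries). No neighbours in that order differed by more than the larger of their SDs. Across 17780 genes with at least 1 read and a known length, the median was 3.99 CPM per kb. Of those genes, 41.0% lay below Cd4 and 13.2% below Cd3g, so every member was below the median gene.

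**Figure D1:**
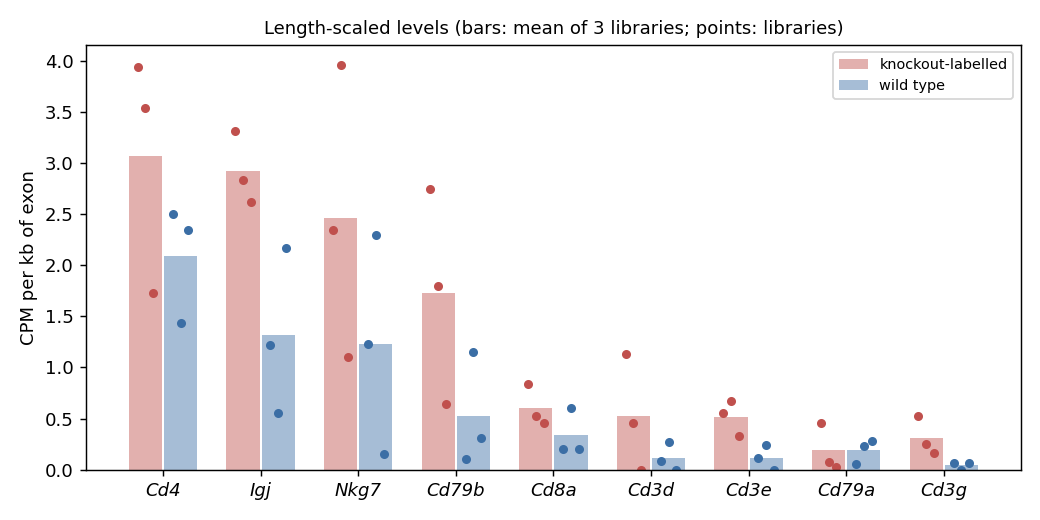
Mean level of each member in CPM per kb of exon (bars, 3 libraries per group, with the libraries as points), in order of the mean over all 6 libraries. Cd4, Igj, Nkg7 and Cd79b lie above the other members, and the points of most genes spread widely within a group.

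Among the members, 8 were tested in the fit across all genes, and 0 of these 8 passed edgeR's quasi-likelihood test at an adjusted p under 0.05. In the same fit 8 of 15796 genes passed, or 0.0506%, namely 0.0253% in each direction. DESeq2, limma-voom and the edgeR exact test also called 0 members, where they called 483, 13 and 352 of the same 15796 genes. At an unadjusted p under 0.05 edgeR held 2 members, Cd3g and Igj, both higher in the knockout-labelled libraries, against 3 in DESeq2, 2 in limma-voom and 3 in the exact test. The edgeR count was 0 after a correction for GC content, and 0 when animal 1 or 2 of the knockout-labelled group or animal 1 of the wild type was left out. Of all genes tested 14.2% reached that p in edgeR, with 7.55% higher and 6.62% lower. DESeq2, limma-voom and the exact test held 2347, 2281 and 2160 genes at that p. The groups did not overlap for 3 members, Cd3e, Cd3g and Igj, all higher in the knockout-labelled libraries, and 10% of all genes tested lay that way, with 9.96% the other way. In bulk tissue, more cells of a type and more RNA per cell cannot be told apart, and this holds for every level below. The number of members without overlap changed when single libraries were left out. It was 7 without knockout-labelled animal 3 and 5 without wild-type animal 2, and 3 without each of the others. Groups of 3 and 2 libraries separate more easily than groups of 3 and 3, to which the 10% and 9.96% apply. The share of all genes was not counted for the smaller groups, so nothing is read from this change.

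**Figure D2:**
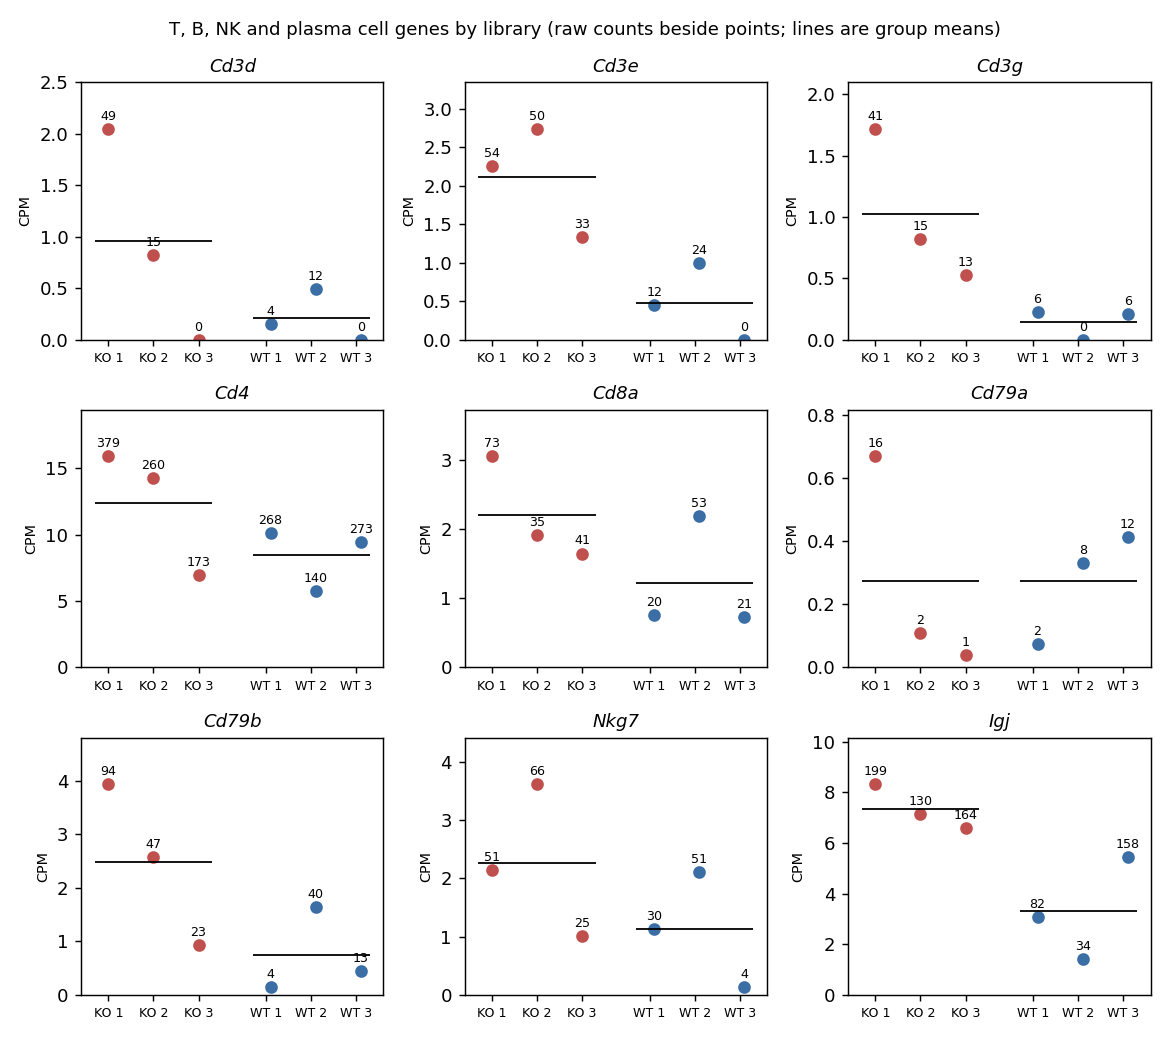
Level of each of the 9 members in CPM (vertical axis, linear from 0) by library, with the raw count written at each point, knockout-labelled animals 1 to 3 in red, wild-type animals 1 to 3 in blue, and group means as lines. Cd3e, Cd3g and Igj show no overlap between the groups, while the other 6 genes do, and Cd3d, Cd3e and Cd3g each hold at least 1 library with 0 reads.

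The genes of the T cell receptor complex had 0 to 54 reads per library. Cd3e, the chain on which assembly of the complex depends, had 54, 50 and 33 reads in knockout-labelled animals 1 to 3 and 12, 24 and 0 reads in wild-type animals 1 to 3. The lowest knockout-labelled library was thus above the highest wild-type library, at 1.33 against 0.991 CPM. The group means were 2.11 ± 0.719 and 0.481 ± 0.496 CPM (SD, n = 3 each). On the log2 scale the difference was 2.13 (SE 1.13; edgeR adjusted p = 0.429), so Cd3e did not pass. The 0 reads of wild-type animal 3 allow up to 3 reads, or 0.104 CPM, by counting error alone. Cd3e shares 3.3% of its exon bases with an antisense gene model (Gm48719), and without a known strand setting the reads of both cannot be told apart.

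Cd3g, which encodes the gamma chain, had 41, 15 and 13 reads in the knockout-labelled libraries and 6, 0 and 6 in the wild type. These groups did not overlap either, but 13 and 6 reads have exact 95% Poisson intervals of 6.92 to 22.2 and 2.20 to 13.1, which meet. The means were 1.02 ± 0.621 and 0.144 ± 0.125 CPM (SD, n = 3 each), and the log2 fold change was 2.76 (SE 1.18, unadjusted p = 0.0435, edgeR adjusted p = 0.339). All 3 knockout-labelled libraries and 0 wild-type libraries reached the level that the low-count filter asks for (0.406 CPM), so this gene entered the test only through the group in which it was higher. Cd3d, encoding the delta chain, had 49, 15 and 0 reads against 4, 12 and 0. Here the groups overlapped, 1 library in each had no read, and knockout-labelled animal 1 held 76.6% of the reads of its group. For Cd3d the log2 fold change was 2.15 (SE 1.60, edgeR adjusted p = 0.584), and without knockout-labelled animal 1 it was 0.90 (edgeR adjusted p = 0.827).

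Together the 3 Cd3 genes had 144, 80 and 46 reads in knockout-labelled animals 1 to 3 and 22, 36 and 6 in wild-type animals 1 to 3. Scaled to depth these were 6.03, 4.39 and 1.85 CPM against 0.827, 1.49 and 0.207 CPM, so the sum was highest in knockout-labelled animal 1 and lowest in wild-type animal 3. The sums did not overlap, and the ratio of the group means was 4.87. Without knockout-labelled animal 1, the library high in erythroid transcripts, the ratio was 3.71. The 3 genes are 1 complex read in the same libraries and are not independent of each other.

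The coreceptor genes had log2 fold changes below 1, and whether these differ from those of the Cd3 genes was not tested. Cd4, which encodes the coreceptor of helper T cells, had 379, 260 and 173 reads in the knockout-labelled and 268, 140 and 273 in the wild-type libraries. The means were 12.4 ± 4.75 and 8.43 ± 2.31 CPM (SD, n = 3 each), and knockout-labelled animal 3, at 6.97 CPM, lay below 2 wild-type libraries. The log2 fold change was 0.55 (SE 0.35, edgeR adjusted p = 0.511). Per kb of exon, Cd4 was 5.26 to 7.10 times as high as Cd3e in the knockout-labelled libraries, 22.6 times in wild-type animal 1 and 5.9 times in wild-type animal 2. In wild-type animal 3, with 0 reads of Cd3e and 273 of Cd4, no ratio can be given. Cd4 is also known from some macrophages and dendritic cells, and the macrophage gene Csf1r stood at 181 to 295 CPM in the 6 libraries. The part of those cells in the Cd4 level was not tested.

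Cd8a, encoding the alpha chain of the coreceptor of cytotoxic T cells, which some dendritic cells share, had 73, 35 and 41 reads against 20, 53 and 21. Wild-type animal 2, at 2.19 CPM, exceeded knockout-labelled animals 2 and 3, at 1.92 and 1.65 CPM. The log2 fold change was 0.86 (SE 0.67, edgeR adjusted p = 0.608). Its partner chain gene Cd8b1, which is no member, had 49, 26 and 14 reads against 5, 15 and 9 (log2 fold change 1.84, SE 0.90, edgeR adjusted p = 0.393), again with overlap.

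The chains of the B cell receptor gave unlike values. Cd79b had 94, 47 and 23 reads in knockout-labelled animals 1 to 3 and 4, 40 and 13 in wild-type animals 1 to 3. Wild-type animal 2, at 1.65 CPM, lay above knockout-labelled animal 3, at 0.926 CPM. The means were 2.48 ± 1.51 and 0.750 ± 0.795 CPM (SD, n = 3 each), and the log2 fold change was 1.73 (SE 0.93, edgeR adjusted p = 0.437). Cd79a, its obligate partner in the receptor, had 16, 2 and 1 reads against 2, 8 and 12. It was the 1 member that the low-count filter removed, and its mean level was 0.273 CPM in both groups. In a fit with no filter beyond 1 count its log2 fold change was -0.01 (SE 1.69, edgeR adjusted p = 0.999). Knockout-labelled animal 1 held 84.2% of the Cd79a reads of its group.

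Nkg7, which encodes a granule membrane protein of NK and cytotoxic T cells, had 51, 66 and 25 reads against 30, 51 and 4. The 2 groups overlapped, and wild-type animal 3 was lowest at 0.138 CPM. The means were 2.25 ± 1.31 and 1.12 ± 0.984 CPM (SD, n = 3 each), and the log2 fold change was 1.00 (SE 0.91, edgeR adjusted p = 0.663).

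Igj (current symbol Jchain) encodes the joining chain that links antibody molecules into the IgM and IgA polymers which plasma cells secrete. It had 199, 130 and 164 reads in the knockout-labelled and 82, 34 and 158 in the wild-type libraries. The raw counts overlapped, with 130 reads in knockout-labelled animal 2, the shallowest library, and 158 in wild-type animal 3, the deepest. Scaled to depth they did not overlap, at 8.33, 7.13 and 6.60 CPM against 3.08, 1.40 and 5.46 CPM. The knockout-labelled libraries lay close together (7.36 ± 0.886 CPM) and the wild-type libraries were spread (3.31 ± 2.04 CPM; SD, n = 3 each). Igj had a log2 fold change of 1.14 with an SE of 0.46 (unadjusted p = 0.0334), and it did not pass over all genes (edgeR adjusted p = 0.315). Pigr, the receptor that carries those polymers across mucosal epithelia, stood at 3.64, 5.82 and 3.5 CPM against 1.88, 0.867 and 1.55 CPM (log2 fold change 1.58, SE 0.49, edgeR adjusted p = 0.224).

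**Figure D3:**
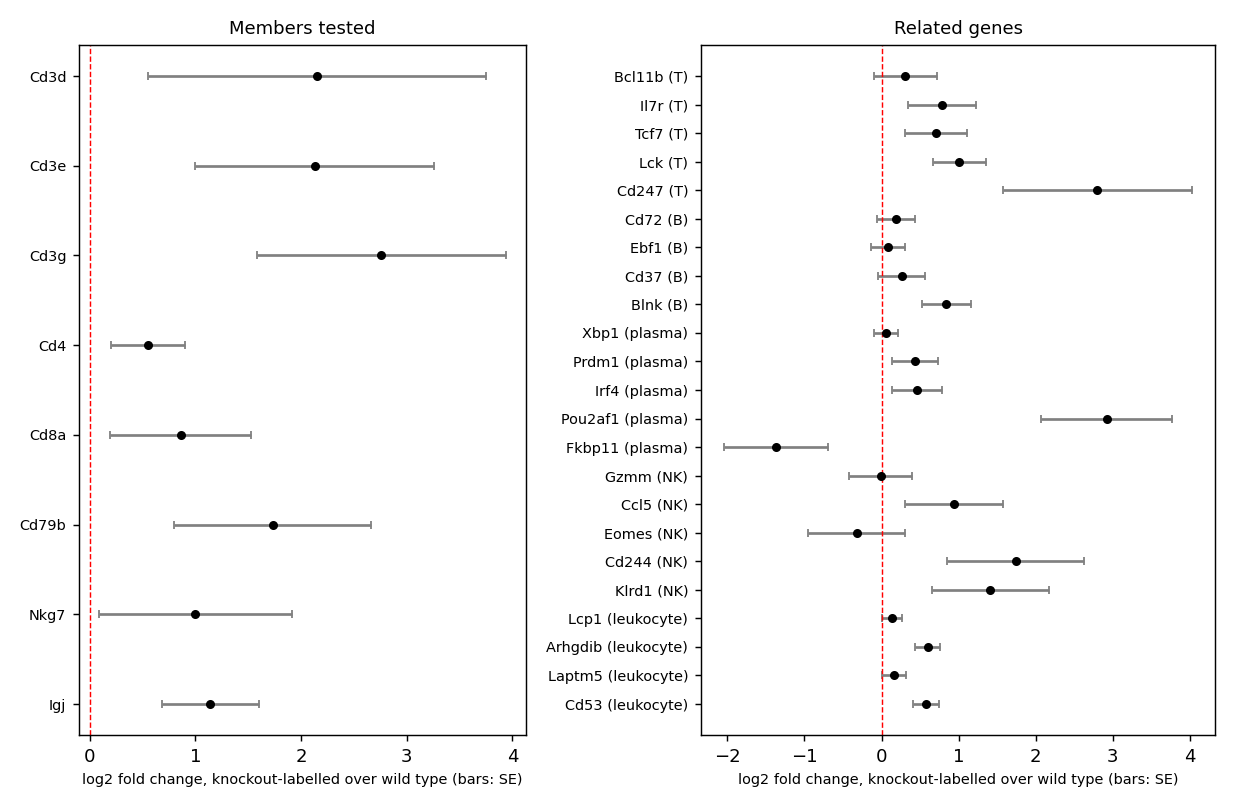
Log2 fold change, knockout-labelled over wild type, with SE, for the 8 members tested (left) and for related genes from 5 lists (right, with the list in brackets). All 8 members lie above 0 and none passed the test, and on the right Fkbp11 lies below -1 while Cd247 and Pou2af1 lie above 2.

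All 8 tested members had a log2 fold change above 0, with a median of 1.44, where 51.2% of all genes tested lay above 0 with a median of 0.01. The untested Cd79a lay at 0, and low-count genes can enter the test through the group in which they are higher, so this count supports nothing by itself. The 9 members summed to 40, 34 and 19 CPM in the knockout-labelled libraries and to 16.1, 15 and 16.8 CPM in the wild type. These sums did not overlap, and the ratio of the means was 1.95, or 1.66 without knockout-labelled animal 1. Cd4 gave 36.6% to 62.6% of the reads in each sum. With Cd4 and Igj both left out, the remaining 7 genes summed to 15.8, 12.6 and 5.48 CPM against 2.93, 7.76 and 1.93 CPM, and the groups overlapped, since wild-type animal 2 lay above knockout-labelled animal 3.

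Most members spread within a group by more than counting error. The variance of the reads over that expected from Poisson counting ran from 2.56 (Igj, knockout-labelled) to 44.5 (Cd4, knockout-labelled) over the 9 genes in both groups. Each ratio rests on 3 libraries. The lowest, 2.56 and 2.63 (Cd3g, wild type), are too imprecise to show more than counting error. The biological coefficient of variation that edgeR assigned at these levels was 27.7% for Cd4 and 35.4% for Igj, but 57.6% to 71.6% for Cd3d, Cd3e, Cd3g, Cd8a, Cd79b and Nkg7. None of the differences above passed at that spread with 3 animals per group.

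Other genes of the same lineages were read from lists of their own. Of 28 other T cell genes, 17 were tested, 13 lay above 0 and 4 below, with a median log2 fold change of 0.71. None passed in edgeR, DESeq2, limma-voom or the edgeR exact test, and 2 had an unadjusted p under 0.05 in edgeR (3 in DESeq2, 2 in limma-voom, 3 in the exact test). The 2 were Lck, the kinase that starts T cell receptor signalling (6.41 ± 1.36 against 3.19 ± 0.703 CPM, log2 fold change 1.01, SE 0.34, edgeR adjusted p = 0.251), and Cd247, the zeta chain of the complex (1.04 ± 0.231 against 0.149 ± 0.197 CPM, 2.80, SE 1.23, edgeR adjusted p = 0.348; SD, n = 3 each). The groups did not overlap for either gene. An unadjusted p under 0.05 in edgeR was reached by 14.2% of all genes tested. The edgeR counts at that p in this list and the lists below are to be read against this share. Whether any list held more such genes than this share was not tested, so the genes named at that p do not set their lists apart. Cd247 had 31, 18 and 21 reads against 2, 9 and 0, and like Cd3g it reached the filter level in 3 knockout-labelled and 0 wild-type libraries, so it entered the test only through the group in which it was higher. The most abundant genes of the list, the transcription factor genes Bcl11b and Tcf7 and the interleukin 7 receptor gene Il7r, had log2 fold changes of 0.31, 0.71 and 0.79, with overlap. Bcl11b and Tcf7 are not particular to T cells.

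Of 18 other B cell genes, 15 were tested, with 9 above 0 and 6 below and a median of 0.19. None passed in any of the 4 tools, and 1 had an unadjusted p under 0.05 in edgeR (2 in DESeq2, 3 in limma-voom, 2 in the exact test). That gene was Blnk, an adaptor of B cell receptor signalling that macrophages also express (16.6 ± 3.29 against 9.32 ± 3.59 CPM, log2 fold change 0.84, SE 0.32, edgeR adjusted p = 0.298; SD, n = 3 each). Ms4a1, which encodes CD20, had 13, 0 and 0 reads against 21, 19 and 27 (-2.14, SE 1.38, edgeR adjusted p = 0.52) and was chosen for mention after its values were seen. The groups did not overlap for Ms4a1, which lay the other way from Cd79b, as 9.96% of all genes tested did. Ms4a1 reached the filter level of 0.406 CPM in every wild-type library (0.789, 0.785 and 0.933 CPM). Of the knockout-labelled libraries only animal 1 reached it (0.544 CPM), so Ms4a1 entered the test through the group in which it was higher. Cd72, Ebf1 and Cd37, the most abundant of the list, stood between -0.10 and 0.52 on the log2 scale over all settings tried and are also expressed outside B cells.

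Of 10 other plasma cell genes, 7 were tested, 5 above 0 and 2 below, with a median of 0.43 and 0 called by edgeR. At an unadjusted p under 0.05 there was 1 in edgeR and 2 in each of the other tools. Pou2af1, a coactivator of antibody gene transcription, had 35, 27 and 53 reads against 4, 3 and 11. Its means were 1.69 ± 0.382 and 0.218 ± 0.141 CPM (SD, n = 3 each), and on the log2 scale the difference was 2.92 (SE 0.85, unadjusted p = 0.00714, edgeR adjusted p = 0.207). By other tools the adjusted p was 0.0217 (DESeq2), 0.0141 (edgeR exact test) and 0.248 (limma-voom), so the call differs between tools. Pou2af1 too reached the filter level only in the 3 knockout-labelled libraries (1.47 to 2.13 CPM against 0.124 to 0.38 CPM), and entered the test through them. Fkbp11, a chaperone gene of secretory cells, lay the other way, with 8, 20 and 40 reads against 85, 53 and 73 (log2 fold change -1.37, SE 0.67, edgeR adjusted p = 0.393). The defining plasma cell genes Mzb1 and Tnfrsf17 had 0 to 18 and 0 to 8 reads per library and were not tested. Xbp1, Prdm1 and Irf4, which many other cells express, had log2 fold changes of 0.06, 0.43 and 0.46.

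Of 19 other NK and cytotoxic genes, 13 were tested, 7 above 0 and 6 below, with a median of 0.57, 0 called in the 4 tools and 0 at an unadjusted p under 0.05 in edgeR (1 in DESeq2 and limma-voom, 3 in the exact test). Klrd1, an NK receptor subunit, had 59, 27 and 25 reads against 11, 14 and 25 (log2 fold change 1.41, SE 0.76, edgeR adjusted p = 0.435), and Cd244 had 33, 16 and 67 against 5, 23 and 10 (1.74, SE 0.89, edgeR adjusted p = 0.413). Ncr1 and Klrb1c, also NK receptor genes, had 11, 0 and 9 against 12, 9 and 13 reads and 9, 0 and 8 against 31, 20 and 22 reads. Klrb1c reached the filter level only in the wild-type libraries, and so entered the test through the group in which it was higher. Gzma, a granule protease gene, had 24, 0 and 0 against 28, 31 and 36 reads. It reached the filter level in every wild-type library but only in animal 1 of the knockout-labelled group, and so entered the test through the wild type. The means of Ncr1, Klrb1c and Gzma were lower in the knockout-labelled libraries, where those of Nkg7 and Klrd1 were higher, and none of them passed. Gzmm, Ccl5 and Eomes, the most abundant of the list, had log2 fold changes of -0.01, 0.94 and -0.32 with overlap, and that of Ccl5 was 0.06 without knockout-labelled animal 2.

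Genes shared by all leukocytes stood much higher. Of 13 such genes, all tested, 10 lay above 0 and 3 below, with a median of 0.17, 0 called in the 4 tools and 2 at an unadjusted p under 0.05 in each. In edgeR the 2 were Arhgdib (68.4 ± 13.4 against 45.1 ± 4.96 CPM, log2 fold change 0.60, SE 0.16, edgeR adjusted p = 0.185) and Cd53 (46.9 ± 6.03 against 31.4 ± 4.84 CPM, 0.58, SE 0.17, edgeR adjusted p = 0.2; SD, n = 3 each). Lcp1 and Laptm5 had log2 fold changes of 0.14 and 0.16. The summed level of the list was 443 to 536 CPM in the knockout-labelled and 361 to 476 CPM in the wild-type libraries.

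Lists of markers of other cell types differed in how far they separated the groups, and their part in the members' levels was not tested. Neutrophil markers (6 of 10 listed genes detected) summed to 75.5 to 133 CPM in the knockout-labelled and 16.6 to 21.9 CPM in the wild-type libraries, and the called gene Ltf, which is on the mucosal list too, gave 46 to 87.9 CPM of the knockout-labelled sums. The granule genes Ngp, Elane and Mpo were at 0 in all libraries, while S100a8 and S100a9 stood at 2.96 to 9.84 and 7.08 to 15.4 CPM against 0.413 to 1.12 and 0.38 to 2.63 CPM. Camp, another granule gene of that list, stood at 3.43, 0.11 and 1.69 against 2.10, 2.44 and 1.52 CPM, with overlap (log2 fold change -0.20, SE 0.89, edgeR adjusted p = 0.945). Cxcr2 of the same list had 48, 19 and 9 reads against 0, 0 and 0, without overlap, and was not tested. Mucosal and lacrimal secretory markers (7 of 10 detected) summed to 264 to 319 against 83.2 to 108 CPM, with Bpifb1 and Wfdc2 the most abundant. Muc5ac and Prol1 of that list were at 0. Erythroid markers (5 of 7 detected, Hba-a1 and Hba-a2 at 0) summed to 56.1 to 1120 against 4.32 to 33.7 CPM, and knockout-labelled animal 1, the highest, was also the highest library in Cd3d, Cd3g, Cd4, Cd8a, Cd79a, Cd79b and Igj. Cd3e and Nkg7 were highest in knockout-labelled animal 2. Knockout-labelled animals 2 and 3 had erythroid sums of 56.1 and 78.4 CPM and member sums of 34 and 19 CPM. Wild-type animals 1 to 3 had erythroid sums of 4.32, 20.7 and 33.7 CPM and member sums of 16.1, 15 and 16.8 CPM. Reads aligned to several places are not in these counts, so the 0 of Hba-a1 and Hba-a2 does not by itself show absence. Blood carries lymphocytes as well as red cells, and the part of blood in the members' levels was not tested.

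Cornea and conjunctiva markers (9 of 9 detected) were lowest among the knockout-labelled libraries in animal 1 (3680 CPM), which had the highest sum of members, and Krt12 stood at 205 CPM there against 4100 and 2900 CPM in animals 2 and 3. Macrophage markers (12 of 12) summed to 2550 to 2890 against 1970 to 3010 CPM, dendritic cell markers (9 of 9) to 71.2 to 80.6 against 39.1 to 69.2 CPM, and mast cell markers (7 of 7) to 56.8 to 91.9 against 50.5 to 67.6 CPM. Of these 3 lists only the dendritic cell sums did not overlap. Of the 2 most abundant markers of each list, Lyz2, Csf1r, Itgax, Csf3r, Kit, Tpsb2, Krt5, Krt12, Ttr and Rgr overlapped between the groups, while Ccr2, Ltf, Alas2, Hbb-b1, Wfdc2 and Bpifb1 lay higher in all knockout-labelled libraries, and only Ltf (edgeR adjusted p = 0.0389) and Bpifb1 (edgeR adjusted p = 0.0415) of these 16 passed.

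**Figure D4:**
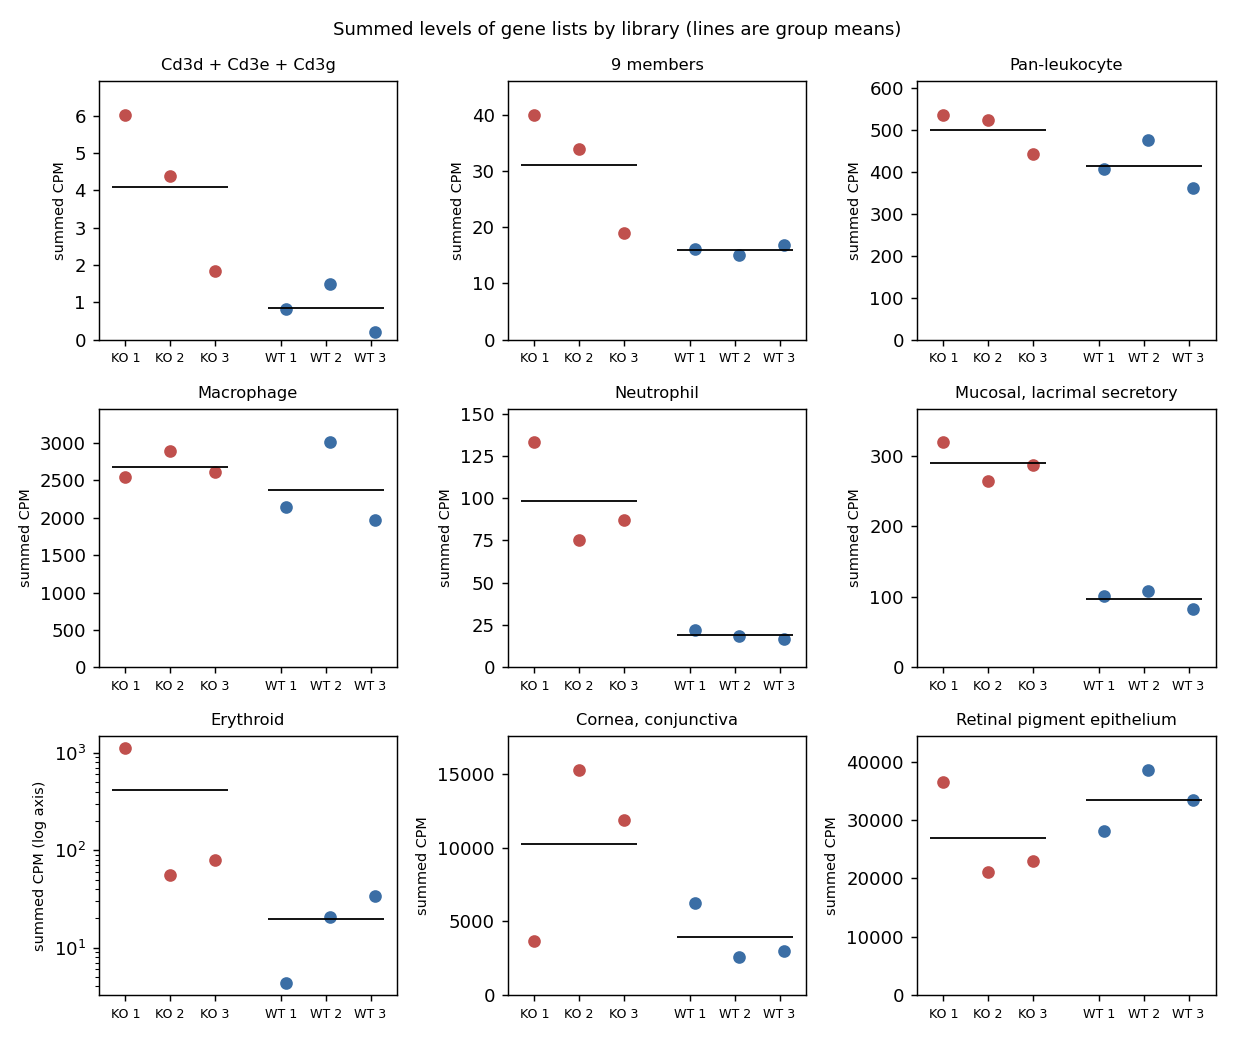
Summed CPM by library for the 3 Cd3 genes, the 9 members and 7 marker lists (linear axes from 0, except the erythroid panel on a log axis, with group means as lines and the same colours for the groups as in the plot of members). The Cd3 sum, the member sum and the neutrophil, mucosal and erythroid sums do not overlap between the groups, while the pan-leukocyte, macrophage, cornea and RPE sums do.

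Among 14802 tested genes with a mean of at least 1 CPM, those whose log2 level ran most like the sum of the 9 members over the 6 libraries were Myd88 (Pearson r = 0.996), Cdc42ep3 (0.984), Mrpl35 (0.983), Fam175b (0.982) and Brk1 (0.981). With 6 points and so many genes, values of this size are a description of these libraries. Myd88, an adaptor of innate immune receptors, stood at 22.9, 21.2 and 16.9 CPM against 16.3, 15.2 and 16.2 CPM.

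In the authors' deposited table, all 9 members had an FDR above 0.05, where 392 of 16561 genes (2.37%) were below it. The authors' deposited table gave log2 fold changes of 2.24, 2.17 and 2.75 for Cd3d, Cd3e and Cd3g, turned here to knockout over wild type, with FDR values of 0.671, 0.442 and 0.294. In the authors' deposited table Igj was at 1.10 (FDR 0.322), Cd79b at 1.77 (FDR 0.531) and Cd79a at 0.04 (FDR 1). These signs matched those of the fit here for all 8 members tested in both.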

How the data were processed

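The deposited table of whole-number gene counts, 1 column per animal, was made by the authors with TopHat, Bowtie and HTSeq on mm10, per the submitters' processing notes. The sources used here do not give the versions, the annotation or the strand setting. The deposited edgeR table of the authors holds log2 fold changes, log2 CPM, p-values and FDR values, per the file headers. Of each library's sum, 14.4% to 16.8% fell in no gene and 18.7% to 25.1% aligned to several places (higher in every knockout-labelled library), and these tallies were left out.

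The test was the quasi-likelihood test of edgeR (version 4.0.16, R 4.3.3; glmQLFit, glmQLFTest) after filterByExpr with a minimum count of 10 and a minimum total of 15, with TMM scaling and Benjamini-Hochberg adjustment over 15796 genes. Genes were called at an adjusted p under 0.05. SEs are the absolute log2 fold change over the square root of F. CPM use TMM-adjusted library sizes. The test was tested on simulated data, with counts drawn from these libraries' means and known fold changes put into a set of genes. Exon lengths (the union over all transcripts), GC content and gene models came from GENCODE M21 (GRCm38, the assembly of mm10). Alternatives were RLE and upper-quartile factors, other filters, DESeq2 1.42.0, limma-voom (limma 3.58.1), the exact test, the replicate block, a GC correction and each library left out. Poisson intervals and limits of 3 counts cover counting error only. The labels list animals, and no 2 libraries agreed within counting noise.

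The members' rule uses no measured value, but the members and lists were chosen with earlier results of these data known. Named are all members, from each related list the called genes or, with none called, the 3 most abundant and the 2 of smallest p, from each list of other cells the 2 most abundant, and the 5 genes most like the members. Genes outside this rule (Cd8b1, Ms4a1, Pigr, Ncr1, Klrb1c, Gzma, S100a8, S100a9, Camp, Cxcr2, Xist, Mzb1, Tnfrsf17 and the list genes at 0) were named after their values were seen. A few values are not reported here.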

Additional observations from a re-analysis of the deposited data

How the results depend on the processing

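No member passed under any alternative run, and the direction of the 8 tested members held in all 126 results. The setting of an adjusted p under 0.10 reuses the main fit, so its signs, for members and related genes alike, could not differ. The ratio of the summed members also kept its direction (log2 0.96, from 0.73 to 1.31 over the alternatives), as did that of the Cd3 genes (log2 2.28, from 1.82 to 2.98), whose alternatives were chosen after seeing the data. Log2 fold changes moved by over 1.5 times when libraries were left out, for Cd3d from 0.90 to 3.6. The members at an unadjusted p under 0.05 numbered 0 to 3 over the alternatives, and 1 with the replicate block. All genes at that p numbered 1379 to 3699 over the alternatives, and 1595 with the replicate block. Among related genes, Ccl5 moved from 0.06 to 1.41. Members without overlap numbered 3 to 7 when a library was left out, again an alternative chosen after seeing the data. The share of all genes was not counted for these smaller groups, which separate more easily. Asking for 1 CPM in 3 libraries removed Cd3d, Cd3g, Cd247 and Cd244, among others.

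Over all genes, 8 were called in the main test, 15 with upper-quartile factors, 22 with no filter, 16 with the stricter filter, 483 in DESeq2, 13 in limma-voom, 352 in the exact test and 30 at an adjusted p under 0.10. Leaving out a library gave 0 to 795, the highest without knockout-labelled animal 1 and 0 without knockout-labelled animal 2 or 3 or wild-type animal 3. With the replicate block 1 gene was called. The labels do not say whether animal numbers pair the libraries. Same-numbered animals had correlations of -0.10, -0.09 and -0.07 of their deviations from the group means, and the block called 0 members. With 3 libraries per group these correlations cannot decide on a pairing. Animal number ran with sex, since Xist was high in animal 1 of each group (820 and 844 CPM). Leaving out animal 1 of a group thus also removed its library with high Xist.

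Of 381 results on related genes, 14 turned sign, all of uncalled genes. Leaving out a library gave -0.14 to 0.53 for Bcl11b, -0.10 to 0.33 for Cd72, -0.09 to 0.18 for Ebf1, -0.08 to 0.52 for Cd37, -0.11 to 0.20 for Xbp1, -0.60 to 0.34 for Gzmm and -0.88 to 0.07 for Eomes. With the GC correction Ebf1 was at -0.04 and Gzmm at 0.13. The cause of these changes was not tested. Levels of a few reads per library limit the precision of Cd3d, Cd3g and Cd79a most.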
